A study of Mus musculus with 2 samples.

Results

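Sialyltransferases are the Golgi enzymes that cap glycoproteins and glycolipids with sialic acid. The 10 genes described here were chosen by name (St3gal1 to St3gal6, St6gal1, St6galnac4, St8sia4 and St8sia6), and every probe set that the platform annotation assigns to one of them alone was taken. That gave 24 of the 45101 probe sets on the array and 10 of the 18193 genes named there. RNA came from peritoneal macrophages of C57BL/6J mice aged 8 weeks, and no mutant allele is given for either group. The elicited array (1 sample, TGPMs) held macrophages collected 3 days after 1 mL of 3% thioglycollate, a sterile irritant broth, was injected into the peritoneal cavity. The resident array (1 sample, RPMs) held macrophages from mice that were not treated. Both preparations were enriched by 2 h of adherence in the labels' protocols, while the series description speaks of overnight culture, and how many mice each array stands for is not stated in the sources used here.

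The family is divided by the bond it makes. ST3 enzymes attach sialic acid to the third carbon of galactose, ST6 enzymes to the sixth carbon of galactose or N-acetylgalactosamine, and ST8 enzymes to the eighth carbon of another sialic acid. All use CMP-sialic acid as donor. On leukocytes their products form ligands for selectins and Siglecs and, as polysialic acid, modify adhesion and chemokine receptors.

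As deposited, 3 members were 2-fold or more apart between the arrays. St8sia6 was bright on the resident array and at background on the elicited one, St3gal3 was 2.23-fold lower on the elicited array, and St6galnac4 was 4.36-fold higher. St3gal3 is the least marked of these. It stayed 2-fold or more lower under only 1 of 4 other scalings of the arrays, and 9.05% of all genes had a lower ratio. The other 7 genes lay within 2-fold. The following sequences are the 250 bases before the annotated start of these 3 genes, shown because their transcripts differed most between the arrays. They are from RefSeq (GRCm38.p6), whose promoter table held 8 of the 10 genes. Capitals mark the GC box GGGCGG and the PU.1 core GAGGAA on either strand (CCGCCC and TTCCTC on the opposite one). PU.1 is the lineage factor of macrophages, and GC boxes are bound by SP1.
St8sia6, chr2:13793521-13793770, minus strand: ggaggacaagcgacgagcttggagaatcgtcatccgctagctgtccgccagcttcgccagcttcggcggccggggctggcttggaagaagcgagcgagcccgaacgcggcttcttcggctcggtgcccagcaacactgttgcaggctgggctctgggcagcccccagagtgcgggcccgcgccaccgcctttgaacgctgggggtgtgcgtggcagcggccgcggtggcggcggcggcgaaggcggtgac
St3gal3, chr4:118134947-118135196, minus strand: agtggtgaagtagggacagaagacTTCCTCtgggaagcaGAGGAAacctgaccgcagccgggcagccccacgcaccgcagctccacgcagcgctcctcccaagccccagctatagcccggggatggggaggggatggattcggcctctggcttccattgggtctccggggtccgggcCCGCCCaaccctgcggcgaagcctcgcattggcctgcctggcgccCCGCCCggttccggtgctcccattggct
St6galnac4, chr2:32586828-32587077, plus strand: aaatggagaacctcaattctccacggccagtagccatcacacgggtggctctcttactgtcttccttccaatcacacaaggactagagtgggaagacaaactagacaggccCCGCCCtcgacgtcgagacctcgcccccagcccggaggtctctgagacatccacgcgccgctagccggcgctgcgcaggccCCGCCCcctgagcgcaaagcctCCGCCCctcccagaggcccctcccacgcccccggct

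All 3 windows are rich in G and C (70.8% in St8sia6, 68.4% in St3gal3 and 65.2% in St6galnac4, against a median of 52.4% over the 32851 promoters of the table). St8sia6 had 30 CpG dinucleotides in this window, where the median promoter had 6. St6galnac4 had 3 GC boxes and St3gal3 had 2, while St8sia6 had none in these 250 bases. A GC box was present in 32.7% of all promoters of the same length. The PU.1 core occurred at 2 places in St3gal3, 2 in St8sia4 and 1 in St3gal4, and in 23.3% of all promoters. Both strands were searched and overlapping matches were allowed. Neither the GATA motif AGATAA (9.99% of all promoters) nor the TATA box TATAAA (12.4%) occurred in the 3 windows printed. A match is a run of letters, and binding was not measured.

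Each value below is a MAS5 signal, the Affymetrix summary of one probe set on a linear scale, and each difference is elicited over resident. A signal of 82.9 served as background floor. It is the 95th percentile, over both arrays, of 124 probe sets that macrophages are not thought to express (keratin-associated proteins and olfactory, vomeronasal and bitter taste receptors). Signals under it were raised to it, so any fold against such a signal is a lower limit, marked "at least". With 1 array per group there was no replicate, no difference was tested, and differences were described against a 2-fold threshold ("past 2-fold" means 2-fold or more). The one spread that could be measured was that of log2 ratios between probe sets of the same gene, with an SD of 0.48 (1.40-fold) over 4453 genes, which leaves out differences between animals and cultures.

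The 2 arrays were on a common scale, with a mean signal of 500.0 each once the lowest and highest 2% of probe sets were left out. RNA quality controls were close, with 3' to 5' signal ratios of 1.22 on the elicited and 1.19 on the resident array for beta-actin. The median log2 ratio of all 11458 genes above the floor was -0.03 as deposited. It became 0.24 when medians were made equal, 0.16 after quantile normalization, 0.07 after loess and -0.30 when the spiked hybridisation controls were set equal. Genes higher on the elicited array made up 40.4% of those past 2-fold as deposited, against 65.7%, 58.2%, 49.98% and 21.6% under those scalings in the same order. The ratio also varied with signal, with a median of -0.23 in the fourth decile of genes by mean signal and 0.40 in the brightest decile.

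Macrophage genes were bright on both arrays. Csf1r, the receptor for the growth factor CSF1, had signals of 32074 on the elicited and 36845 on the resident array, and the lysosomal gene Cd68 had 40130 on the elicited and 22834 on the resident array. All 8 pan-macrophage markers were above the floor on both arrays, 5 of them within 2-fold, where 80.1% of all genes were. Itgam, with 3027 on the elicited and 9059 on the resident array, was past 2-fold lower. So was Cd14, with 6481 on the elicited and 17665 on the resident array. Fcgr1, with 3430 on the elicited and 1344 on the resident array, was past 2-fold higher. A dimmer probe set of Csf1r had a log2 ratio of -1.76. Markers of other cell types differed between the arrays. B cell markers were past 2-fold lower in 9 of 10 cases, with a summed signal of 941 on the elicited array against 23798 on the resident array. Of 11 mesothelial and fibroblast markers, 8 were at least 2-fold higher, with summed signals of 16446 on the elicited and 730 on the resident array. Over all genes, 8.03% were past 2-fold higher. Only 4 of these markers exceeded the floor in the resident macrophages, namely Krt8, Col1a2, Col3a1 and Sparc, and all 4 were past 2-fold higher. The others passed the floor in the elicited macrophages alone, so they could only come out higher. In RNA from a mixed preparation, fewer cells of a type and less RNA per cell cannot be told apart. How these cells bear on the sialyltransferase values was not tested.

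All 10 sialyltransferase genes exceeded the floor on 1 array or more, and 9 did so on both. Of their 24 probe sets, 16 were above it on both arrays, 5 on the resident array alone and 3, all of St3gal6, on neither. By gene, each represented by its brightest probe set, 1 of 10 was past 2-fold higher on the elicited array, where 8.03% of all genes were. Likewise 2 of 10 were past 2-fold lower, where 11.8% of all genes were. With 10 genes, these shares lie near those of all genes and are no result about the family. The median log2 ratio of the 10 was -0.06, beside -0.03 over all genes. Among their 21 probe sets above the floor, 2 were past 2-fold higher and 5 past 2-fold lower, where 6.65% and 15.2% of all such probe sets were.

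**Figure D1:**
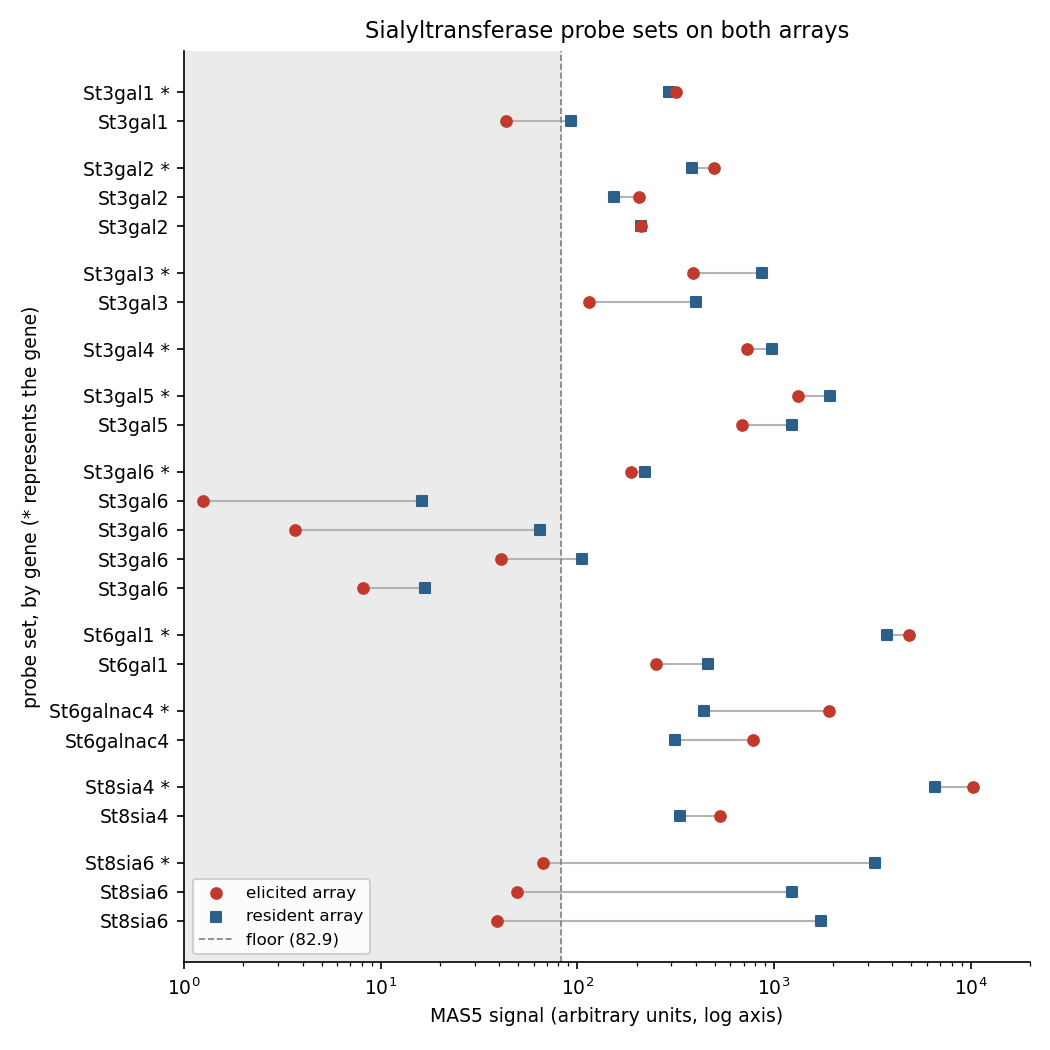
MAS5 signal (log axis) of each of the 24 sialyltransferase probe sets, in rows grouped by gene, on the elicited array (red circles) and the resident array (blue squares), with 1 array each; the dashed line and grey area mark the floor of 82.9 and signals below it. The 3 St8sia6 probe sets lie between 1236 and 3257 on the resident array and below the floor on the elicited one, while both St6galnac4 probe sets are higher on the elicited array.

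St8sia6, which extends sialylated O-glycans with a further sialic acid and in the mouse makes ligands for Siglec-E, showed the widest difference. Its brightest probe set had a signal of 66.6 on the elicited array, against 3257 on the resident array. The second had 38.9 on the elicited and 1740 on the resident array. The third had 49.4 on the elicited and 1236 on the resident array. All 3 probe sets were thus below the floor on the elicited array and far above it on the resident one. These signals were lower on the elicited array by at least 39.3-fold, 21.0-fold and 14.9-fold. With the stricter floor of 175, the 99th percentile of the same silent families, the first became at least 18.6-fold lower. The log2 ratio of this gene stayed between -5.44 and -5.18 under the 4 other scalings. The second probe set is of the type (suffix s) whose probes can match more than one transcript.

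Markers of resident large peritoneal macrophages and of B cells were also far lower on the elicited array. Of 7 resident macrophage markers, 6 were lower there by 2-fold or more, with summed signals of 5164 on the elicited and 78190 on the resident array, and Timd4, Alox15 and F5 did not exceed the floor there. Timd4, a receptor for apoptotic cells, was at least 117-fold lower, and Gata6, the transcription factor of these macrophages, had signals of 411 on the elicited and 1822 on the resident array. Of the B cell markers, Cd79a, Fcrla, Ebf1 and Cr2 did not exceed the floor on the elicited array, and Ms4a1, which encodes CD20, had signals of 139 on the elicited and 5281 on the resident array. The part of either cell type in the St8sia6 signal was not tested.

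St8sia4, the polysialyltransferase that builds long sialic acid chains, had a signal of 10345 on the elicited array, against 6558 on the resident array. Its second probe set had 533 on the elicited and 332 on the resident array. Both probe sets were higher on the elicited array by nearly the same factor, 1.58-fold and 1.61-fold, which is within 2-fold. The log2 ratio of 0.66 compares with a median of 0.40 among genes of the brightest decile, to which St8sia4 belongs. Under the 4 other scalings it lay between 0.30 with quantile normalization and 0.96 with equal medians, so the direction was the same in each. The members that build sialic acid on sialic acid therefore differed from each other in direction, St8sia4 being higher and St8sia6 lower on the elicited array.

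Genes of proteins reported to carry polysialic acid were mostly within 2-fold, as were most genes of the array. Of 5 measured carriers, 1 was past 2-fold lower on the elicited array and 4 were within 2-fold (median log2 ratio -0.10). Over all genes, 11.8% were past 2-fold lower and 80.1% within 2-fold. With 5 genes, these counts are no result about the carriers. Ccr7, a chemokine receptor of dendritic cells and lymphocytes, had an elicited signal of 41.4, which is under the floor, and a resident signal of 350, at least 4.22-fold lower. Of 7 dendritic cell markers, 5 were above the floor, all on the resident array alone, so these 5 could only come out lower. The size of the difference was past 2-fold for 4 of them. Flt3 and Xcr1 were at or below the floor on both arrays. The semaphorin coreceptor gene Nrp2 had signals of 1513 on the elicited and 1534 on the resident array, and Cadm1 had 504 on the elicited and 540 on the resident array. Cd36, a scavenger receptor, was the brightest carrier within 2-fold, with signals of 35337 on the elicited and 20401 on the resident array. It was past 2-fold higher with equal medians (log2 ratio 1.10) and, as deposited, in a dimmer probe set (1.52). Ncam1, the best known carrier, was at or below the floor on both arrays in all 7 of its probe sets.

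St6galnac4, which adds sialic acid to the N-acetylgalactosamine of sialylated core O-glycans, was the one member past 2-fold higher on the elicited array. Its brighter probe set had a signal of 1912 on the elicited array, against 439 on the resident array. Its other probe set had 782 on the elicited and 312 on the resident array. Both probe sets were above the floor on both arrays and higher on the elicited one, by 4.36-fold and 2.51-fold. Of the 9798 genes that exceeded the floor on both arrays, 1.32% had a higher ratio than St6galnac4. The log2 ratio of 2.12 ranged from 1.82 to 2.43 over the 4 other scalings and was 1.72 when its probe sets were averaged.

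St6galnac6, a related enzyme acting mainly on gangliosides, is the next protein-coding gene after St6galnac4 in the RefSeq gene order. It had a signal of 973 on the elicited array, against 552 on the resident array, 1.76-fold higher. This difference is within 2-fold as deposited and on the hybridisation controls, but its log2 ratio was between 1.01 and 1.13 with equal medians, quantile normalization and loess. Both neighbours were thus higher on the elicited array under every scaling tried.

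St6gal1, which sialylates the N-glycans that the B cell receptor CD22 binds, gave probe sets that disagreed. The brighter one had a signal of 4842 on the elicited array, against 3759 on the resident array, 1.29-fold higher. The dimmer one had 252 on the elicited and 464 on the resident array, 1.84-fold lower. Neither passed the 2-fold threshold, and no direction is given for the gene, since its log2 ratio was 0.37 by the brighter probe set and -0.26 when both were averaged. The B cell markers, 9 of 10 of them lower on the elicited array, are listed above, and their part in these signals was not tested.

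**Figure D2:**
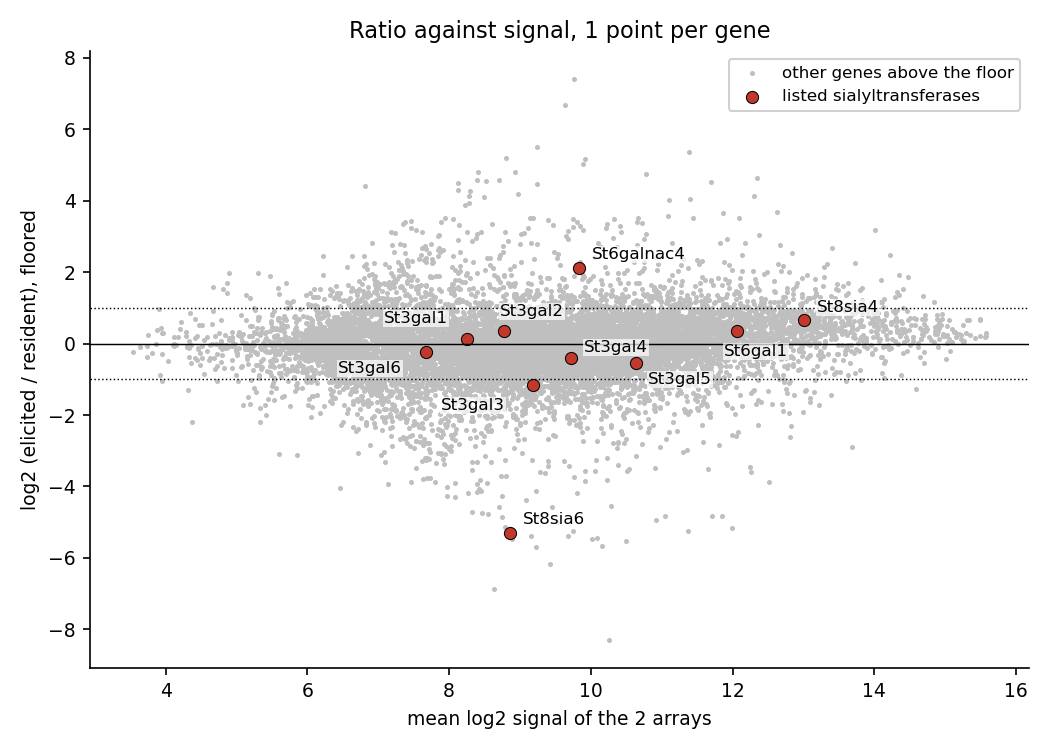
Floored log2 ratio of elicited over resident signal against the mean log2 signal of the 2 arrays, with 1 point for each of the 11458 genes above the floor and the 10 sialyltransferases in red; dotted lines mark 2-fold. St8sia6 lies near the lower edge at -5.30, a bound, St6galnac4 lies at 2.12, and St3gal3 lies just below the lower line at -1.16.

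The ST3 genes formed a narrower group, with 1 of 6 past 2-fold lower on the elicited array and 5 within 2-fold. Over all genes, these shares were 11.8% and 80.1%. Their log2 ratios ran from -1.16 to 0.36, with a median of -0.32. St3gal3, which sialylates galactose on N-glycans and glycolipids, had a signal of 388 on the elicited array, against 866 on the resident array. Its second probe set had 114 on the elicited and 400 on the resident array. Both were lower on the elicited array, by 2.23-fold and 3.50-fold. The log2 ratio of -1.16 is past the threshold as deposited and on the hybridisation controls (-1.46), but was -0.85 with equal medians, -0.87 with quantile normalization and -0.91 with loess, all within 2-fold.

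St3gal4 and St3gal6 are known in mouse leukocytes for the sialylated ends of selectin ligands. St3gal4 had a signal of 732 on the elicited array, against 974 on the resident array, 1.33-fold lower. Its single probe set was lower on the elicited array under every scaling, with log2 ratios from -0.71 to -0.11. St3gal6 was dim. Its brightest probe set had 188 on the elicited and 220 on the resident array, and is of the type (suffix x) that can cross-hybridise with other transcripts. A second had 40.6 on the elicited and 105 on the resident array. The other 3 were below the floor on both arrays, so no direction is given for St3gal6, whose log2 ratio was -0.23 as deposited and between 0.08 and 0.31 with equal medians, loess and quantile normalization. The other selectin ligand genes were within 2-fold as deposited in 4 of 4 cases, where 80.1% of all genes were. Selplg, the protein backbone PSGL-1, had signals of 5822 on the elicited and 7169 on the resident array, and the fucosyltransferase gene Fut7 had 241 on the elicited and 159 on the resident array. Fut7 was past 2-fold higher with quantile normalization and loess (log2 ratios 1.11 and 1.01), and Gcnt1, a branching enzyme of O-glycans, was so with equal medians (1.00).

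St3gal1 and St3gal2, which sialylate galactose on core O-glycans and, for St3gal2, on gangliosides, were within 2-fold under every scaling. St3gal1 had a signal of 317 on the elicited array, against 293 on the resident array, 1.08-fold higher. Its second probe set had 43.3 on the elicited and 93.2 on the resident array, and the resident signal is close to the floor. The direction of St3gal1 turned with the scaling, with log2 ratios from -0.18 on the hybridisation controls to 0.56 with quantile normalization. St3gal2 had a signal of 496 on the elicited array, against 385 on the resident array, 1.29-fold higher. Its other probe sets had 206 and 212 on the elicited array, against 153 and 211 on the resident array. None of the 3 probe sets was lower on the elicited array, though the last differed by under 1 unit of signal. By its brightest probe set, St3gal2 was higher on the elicited array under the 4 other scalings. Its log2 ratios ran from 0.07 on the hybridisation controls to 0.73 with quantile normalization.

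St3gal5, which makes the ganglioside GM3 from lactosylceramide, was lower on the elicited array in both probe sets. The brighter one had a signal of 1320 on the elicited array, against 1917 on the resident array, 1.45-fold lower. The other had 684 on the elicited and 1238 on the resident array, 1.81-fold lower. Both differences are within 2-fold as deposited. The brighter probe set kept its direction under the 4 other scalings (log2 ratio from -0.84 to -0.23). The genes that build its acceptor were within 2-fold as deposited as well. Ugcg, which starts glycosphingolipid synthesis, had 508 on the elicited and 969 on the resident array, and B4galt6, one of 2 listed lactosylceramide synthase genes, had 3659 on the elicited and 2994 on the resident array. All 5 measured genes of that list were within 2-fold as deposited (median log2 ratio 0.10), where 80.1% of all genes were. Ugcg was past 2-fold lower on the hybridisation controls (log2 ratio -1.23) and, as deposited, in a dimmer probe set (-1.37). St8sia1, which turns GM3 into GD3, did not exceed the floor on either array by its brightest probe set. Another of its probe sets reached 83.0 on the elicited array, barely above the floor.

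**Figure D3:**
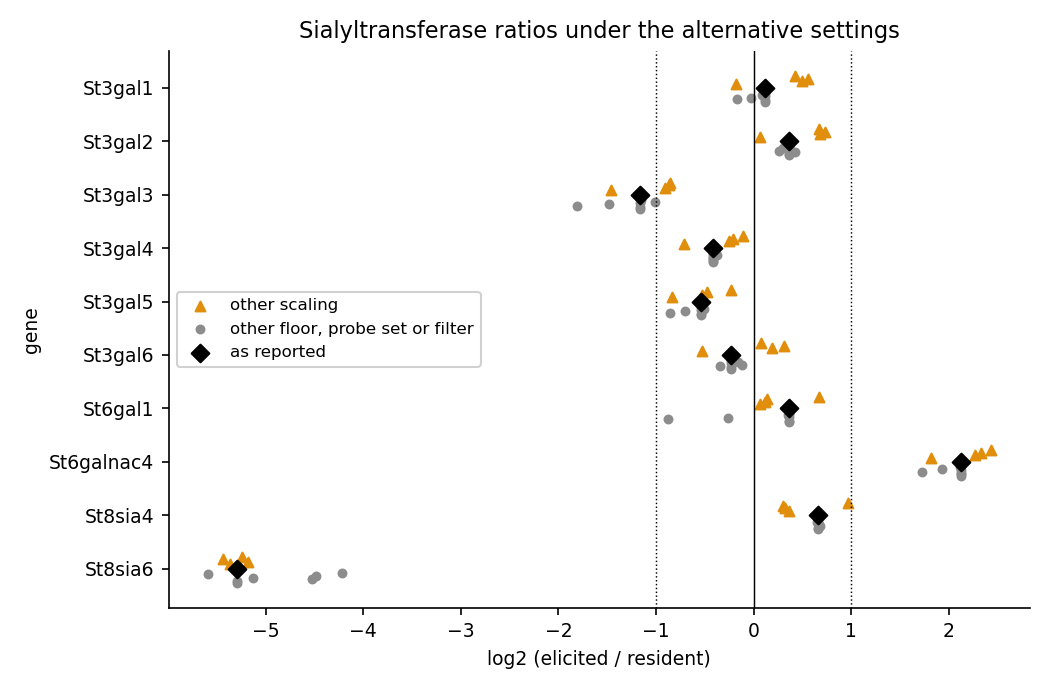
Log2 ratio of elicited over resident signal for each of the 10 sialyltransferases as reported (black diamonds), under 4 other scalings (orange triangles) and under other floors, probe set choices and filters (grey circles); dotted lines mark 2-fold. St6galnac4 stays between 1.72 and 2.43 and St8sia6 between -5.59 and -4.22, while St3gal3 crosses the 2-fold line and St3gal1, St3gal6 and St6gal1 cross 0.

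The other 10 sialyltransferase genes of the mouse were mostly at background in these cells. Of them, 6 were at or below the floor on both arrays by their brightest probe set, namely St6gal2, St6galnac2, St6galnac5, St8sia1, St8sia2 and St8sia3. Among the 4 above it, St6galnac3, which makes the same kind of disialylated O-glycan as St6galnac4, had 48.6 on the elicited and 209 on the resident array, a difference of at least 2.52-fold. St6galnac1 had 94.2 on the elicited and 176 on the resident array, past 2-fold lower on the hybridisation controls only (log2 ratio -1.16). St8sia5 was dim, with 98.6 on the elicited and 121 on the resident array. Over all 20 genes of the family, 14 were above the floor, of which 1 was past 2-fold higher, 3 were past 2-fold lower and 10 were within 2-fold. Of all genes above the floor, 8.03% were past 2-fold higher and 11.8% past 2-fold lower. With 14 genes, these counts are no result about the family.

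Genes that supply the sialic acid donor had similar signals on both arrays, apart from Cmah. Of 6 genes for synthesis, activation and Golgi transport, 5 were within 2-fold, where 80.1% of all genes were. These 5 had ratios of 1.13-fold or less, and the median log2 ratio of the 6 was 0.10. Cmas, which activates sialic acid to CMP-sialic acid, had 4586 on the elicited and 4073 on the resident array. Gne, which starts the pathway, had 249 on the elicited and 235 on the resident array. The CMP-sialic acid transporter gene Slc35a1 had 911 on the elicited and 920 on the resident array. The directions of these small differences turned with the scaling. Cmah encodes the hydroxylase that turns N-acetyl into N-glycolyl sialic acid, and it had 25.2 on the elicited and 439 on the resident array, at least 5.29-fold lower. All 4 of its probe sets above the floor were lower on the elicited array, and its log2 ratio was -2.26 or lower under every scaling.

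Release and recycling of sialic acid gave no gene past 2-fold as deposited among 7 measured, with a median log2 ratio of 0.29. Within 2-fold were 80.1% of all genes. Ctsa, which stabilises the lysosomal sialidase, was the brightest, with 28174 on the elicited and 14810 on the resident array. Neu1, that sialidase, had 2086 on the elicited and 1821 on the resident array. Npl, the sialic acid lyase, had 342 on the elicited and 186 on the resident array, which is within 2-fold as deposited but had a log2 ratio of 1.19 with equal medians, 1.36 with quantile normalization and 1.30 with loess. Ctsa and Renbp, an amino sugar epimerase, were past 2-fold higher with equal medians, each with a log2 ratio of 1.24. Casd1, also of this list, had 1843 on the elicited and 2590 on the resident array by its brighter probe set. Its dimmer probe set was past 2-fold lower as deposited (log2 ratio -1.55).

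Among genes that build the acceptor glycans, single genes were past 2-fold. In mucin-type O-glycan synthesis, 1 of 11 genes was past 2-fold higher on the elicited array, 2 were past 2-fold lower and 8 were within 2-fold (median log2 ratio -0.19). Over all genes, 8.03% were past 2-fold higher and 11.8% past 2-fold lower. With 11 genes, these counts are no result about the pathway. Galnt6, which starts O-glycans by adding N-acetylgalactosamine, had 1700 on the elicited and 181 on the resident array, 9.37-fold higher, with all 3 probe sets in that direction. C1galt1, which adds the galactose of core 1 that St3gal1 and St6galnac4 act upon, had 597 on the elicited and 1716 on the resident array, 2.87-fold lower. C1galt1 was lower in all 3 probe sets, with log2 ratios from -1.60 to -0.19. Its chaperone gene C1galt1c1, the brightest within 2-fold, had 3852 on the elicited and 2442 on the resident array. Galnt12 had 88.9 on the elicited and 217 on the resident array, 2.44-fold lower, but was within 2-fold with equal medians, quantile normalization and loess.

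On N-glycans, 1 of 12 measured genes was past 2-fold higher on the elicited array, 2 were past 2-fold lower and 9 were within 2-fold (median log2 ratio 0.00). Mgat4a, a branching enzyme, had 483 on the elicited and 3350 on the resident array, 6.94-fold lower in the brighter of 2 probe sets that were both lower. Mgat5, which adds another branch, had 2053 on the elicited and 837 on the resident array, 2.45-fold higher. It stayed just under 2-fold on the hybridisation controls (log2 ratio 0.9959). A dimmer Mgat5 probe set above the floor was within 2-fold as deposited (log2 ratio 0.70). Man2a1, a mannosidase acting before branching, had 2080 on the elicited and 4471 on the resident array, 2.15-fold lower, but was within 2-fold with equal medians. B4galt1, which adds the galactose that St6gal1 and the ST3 enzymes cap, had 2579 on the elicited and 3059 on the resident array. B3gnt2, which extends galactose-ended chains into poly-N-acetyllactosamine, was the brightest within 2-fold, with 3638 on the elicited and 3823 on the resident array. Over the 8 lists of sialic acid and glycan genes, 3 of 57 genes were past 2-fold higher and 8 past 2-fold lower, beside 8.03% and 11.8% of all genes.

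**Figure D4:**
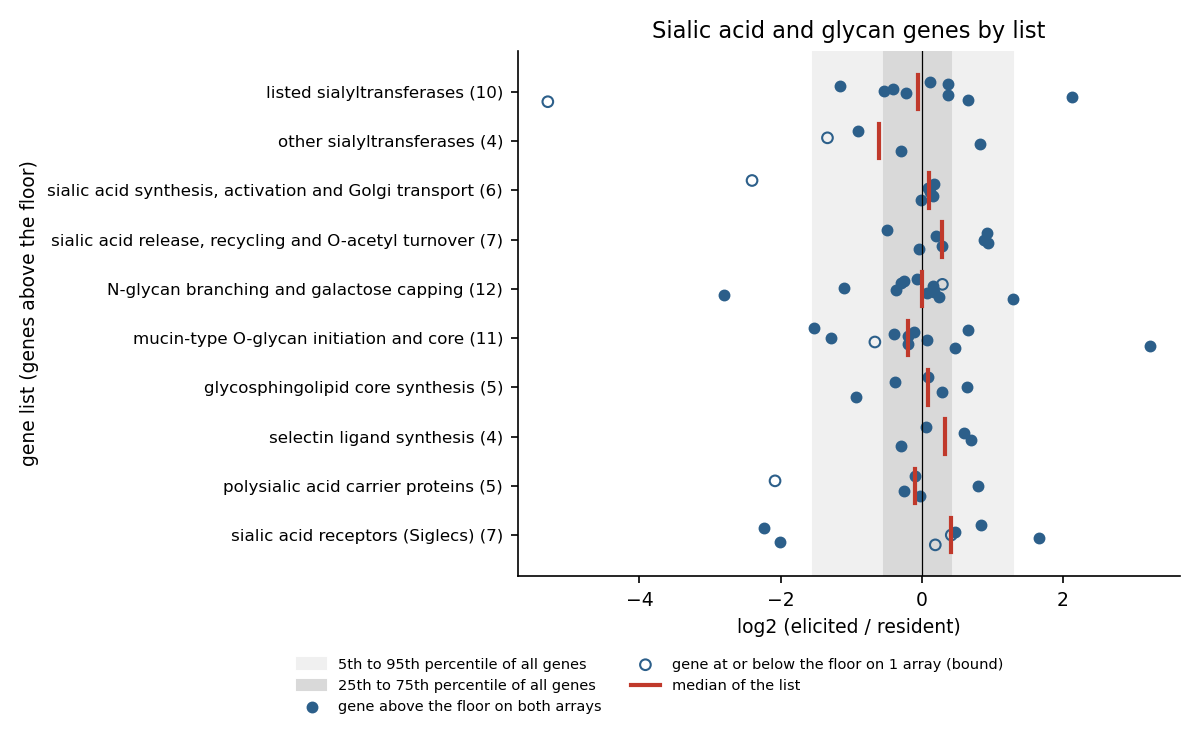
Log2 ratio of elicited over resident signal for the listed sialyltransferases, the rest of the family and 8 lists of sialic acid and glycan genes, with 1 point per gene above the floor, open where 1 array was at or below it, and the list median as a red bar; grey bands are percentiles of all 11458 genes. All list medians lie between -0.60 and 0.42, and St8sia6, Mgat4a, Cmah and Galnt6 are the points farthest from 0.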

How the data were processed

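The deposited table holds 1 signal intensity per probe set and array, on a linear scale, which the authors computed with MAS5, according to the submitters' processing notes (version, scaling target and detection calls not stated there). The number of arrays limits the precision. Probe sets were named from the platform annotation. Of 34958 with 1 gene, 34754 were matched to the GRCm38.p6 RefSeq table and took the symbol given there. A further 932 list several genes, none a listed sialyltransferase, and were left out. A gene was represented by its brightest probe set (highest mean log2 signal), and floored log2 ratios were taken as elicited minus resident. No test was run, since each group had 1 array. The 12 alternatives changed the scaling, the floor, the probe set and the filter on dim genes. In simulated arrays with little noise, the calculations recovered changes well past 2-fold that were set in genes far above the floor. That check does not cover dim genes, signals under the floor or differences near 2-fold.

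The genes and lists were chosen with earlier results of these data known. All 10 sialyltransferases are named, then, in each pathway list, members at least 2-fold apart and the brightest within 2-fold, and up to 3 of each marker list; further genes were named after their values were seen. Marker lists not described elsewhere gave 1 of 5 monocyte genes higher and 3 lower, and 5 of 5 mast cell genes lower. They also gave 1 of 2 neutrophil genes lower, 1 of 5 T and NK cell genes higher and 2 lower, and 1 of 2 eosinophil genes higher. All these calls are at 2-fold, among genes above the floor. Only 2 of 8 neutrophil genes and 2 of 5 eosinophil genes with a probe set were above it. Of 7 mast cell genes with a probe set, 5 passed it, each in the resident macrophages alone. These 5 could therefore only come out lower, and only the size of their difference is informative. The same holds for Cd3d and Cd3g, the 2 T and NK cell genes called lower. The neutrophil gene called was Csf3r, and the eosinophil gene was Siglecf, which is also among the Siglecs. Python 3.11.15, numpy 2.4.6, pandas 2.3.3 and statsmodels 0.14.6 were used.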

Additional observations from a re-analysis of the deposited data

How the results depend on the processing

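The count of sialyltransferases at least 2-fold higher on the elicited array was 1 under all 12 alternatives. The count at least 2-fold lower was 2 as reported and 1 with equal medians, quantile normalization and loess, because St3gal3 moved within 2-fold, and 1 when genes had to be above the floor on both arrays, because that filter leaves out St8sia6. The median log2 ratio of the 10 genes ranged from -0.38 to 0.25. Of 119 recomputed ratios of single members, 112 moved by less than the SD of 0.48 between probe sets and 7 by more, and none of the 3 genes past 2-fold changed direction. Over all genes, 920 were at least 2-fold higher and 1356 lower as deposited. The counts were 1665 and 869 with equal medians, 573 and 2085 on the hybridisation controls, and 2197 lower when the probe set with the widest ratio stood for each gene. No paired analysis was possible because each group had 1 array. Values under the floor cannot be told from background, and differences between animals or cultures were not measured.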

Other observations

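Siglecs, the receptors that read sialic acid on leukocytes, split in direction. Of 7 measured, 1 was past 2-fold higher on the elicited array, 2 were past 2-fold lower and 4 were within 2-fold (median log2 ratio 0.42). Of all genes, 8.03% were past 2-fold higher and 11.8% past 2-fold lower. With 7 genes, these counts are no result about the Siglecs as a group. Siglecf, a receptor of eosinophils and some macrophages, had a signal of 1014 on the elicited and 322 on the resident array, 3.15-fold higher. Cd33 had 423 on the elicited and 1990 on the resident array, 4.71-fold lower, and Siglecg, known from B cells, had 136 on the elicited and 544 on the resident array, 4.01-fold lower. Cd22, also known from B cells, was the brightest within 2-fold, with 4078 on the elicited and 2269 on the resident array, while 9 of 10 B cell markers were lower on the elicited array; the part of B cells in these values was not tested. Siglece was at or below the floor on both arrays (5.86 on the elicited and 69.0 on the resident array). These directions were the same under the 4 other scalings for Siglecf, Cd33, Siglecg and Cd22, the last being past 2-fold with equal medians (log2 ratio 1.15).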
